A study of Homo sapiens with 13 samples.

Results

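The 6 loci described here hold genes around the interleukin-7 receptor and its JAK-STAT signal: IL7R, SOCS1, SOCS2, CISH, PIM1 and BCL6. Every peak that overlapped one of the 6 gene spans, extended by 25 kb on both sides, was taken from 12 peak lists, and this gave 966 of 3429979 peaks (0.0282%). IL7R had 239 of them, SOCS2 227, BCL6 192, PIM1 121, SOCS1 119 and CISH 68. The lists came from CUT&RUN, in which an antibody directs a nuclease to the chromatin where its target sits and the released DNA is sequenced. The cells were Nalm6, an established human line of B-cell precursor acute lymphoblastic leukaemia. There were 4 groups of 3 libraries: LEF1 antibody in control cells, LEF1 antibody after prednisolone, TCF7L2 antibody in control cells and TCF7L2 antibody after prednisolone. Prednisolone, a synthetic glucocorticoid, was given at 5 µM for 24 h. All groups were grown in the same medium with charcoal-stripped serum, and the controls are labelled as untreated in one field while the protocol names a vehicle. The 3 replicates of a group are described as independent experiments on this single cell line. An IgG sample was not analysed here. The lists hold positions on DNA and no expression, so the cell line was not checked against marker genes.

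IL7R encodes the alpha chain of the interleukin-7 receptor, which keeps B-cell precursors alive and dividing through the kinases JAK1 and JAK3 and the transcription factor STAT5. CISH, SOCS1 and SOCS2 encode SH2-domain proteins that STAT signalling induces and that damp the same cytokine receptors, and PIM1 encodes a serine/threonine kinase that supports survival of blood cells and is a known STAT5 target. BCL6 encodes a zinc-finger repressor that interleukin-7 and STAT5 keep low in B-cell precursors. IL7R is also a known target of the glucocorticoid receptor in lymphoid cells. LEF1 and TCF7L2 are HMG-box factors of the TCF/LEF family, which bind the same DNA motif and pass on the Wnt signal together with beta-catenin.

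The 250 bases before a RefSeq start (GRCh38.p14) are shown for 3 genes with peaks near the start: CISH, whose start had a TCF7L2 peak in 5 of 6 lists, BCL6, whose start had the best-ranked TCF7L2 peak of all 6 loci, and IL7R, whose 5′ region held LEF1 peaks with better ranks after prednisolone. Capitals mark matches to the STAT motif TTCNNNGAA. CISH lies at chr3:50611775-50612024, minus strand, BCL6 at chr3:187745469-187745718, minus strand, and IL7R at chr5:35856641-35856890, plus strand. These are GRCh38 positions and cannot be set against the hg19 positions of the peaks given further on.
CISH: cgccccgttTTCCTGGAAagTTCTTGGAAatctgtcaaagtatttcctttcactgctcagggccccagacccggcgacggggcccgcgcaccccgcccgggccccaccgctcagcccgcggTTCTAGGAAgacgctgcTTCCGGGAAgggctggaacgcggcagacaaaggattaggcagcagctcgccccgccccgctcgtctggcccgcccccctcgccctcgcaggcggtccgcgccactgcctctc
BCL6: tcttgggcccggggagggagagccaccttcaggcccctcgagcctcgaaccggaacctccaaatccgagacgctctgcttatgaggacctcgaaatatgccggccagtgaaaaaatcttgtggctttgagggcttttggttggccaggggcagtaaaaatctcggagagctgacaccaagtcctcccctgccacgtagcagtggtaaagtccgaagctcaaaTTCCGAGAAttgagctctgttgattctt
IL7R: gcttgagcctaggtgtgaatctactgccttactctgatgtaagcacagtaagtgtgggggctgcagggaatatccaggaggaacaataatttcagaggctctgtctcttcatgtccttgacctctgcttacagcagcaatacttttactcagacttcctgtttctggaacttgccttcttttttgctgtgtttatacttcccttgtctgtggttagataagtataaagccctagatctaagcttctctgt
The CISH sequence held 4 separate STAT matches, whose first bases lay 241, 230, 129 and 112 bases before the start, and the BCL6 sequence held 1, at 28 bases. None was found before the IL7R, SOCS1 or PIM1 start or before another BCL6 start in the table, and 5 of the 6 genes had an entry. Of 35116 human promoter windows of the same length, 6.57% held this motif. No window of the 5 genes held a TCF/LEF motif (CTTTGAA or CTTTGAT, or else CTTTGTA or CTTTGTT, in 12% of all windows) or the palindromic glucocorticoid receptor motif (in 0.327%). All motifs were searched on both strands, no match overlapped another, and a match describes the letters alone.

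Peaks were compared by their rank. The authors called peaks in each library separately, and the lists held between 128863 and 395786 peaks, so each was limited to its 20000 peaks with the highest −log10 p-value, called top peaks here, with rank 1 as the strongest. No read totals enter these values, so the depth behind a rank is unknown. The limit fell at strong calls in the LEF1 lists, with a −log10 q-value of 5.49 to 6.62, and at weak ones in the TCF7L2 lists, with 0.390 to 0.996. In TCF7L2 prednisolone replicate 3, the list of 144091 peaks, the ranks from 12402 on were ties in both p-value and fold. They were ordered by chromosome and position alone, with 7599 tied peaks inside the limit and 3399 outside it. Top peaks of the 6 libraries of an antibody were merged into regions where they shared at least 1 bp, and a region took the rank of its best peak in each list. By the shortest peak, the libraries of both antibodies fell into the same sets of treatment and replicate number. The first set held control replicate 1 and prednisolone replicates 2 and 3. The second held control replicates 2 and 3 and prednisolone replicate 1. For LEF1 the first set had the shorter peaks (shortest peak 164 to 165 bp, against 187 to 197 bp). For TCF7L2 it had the longer ones (193 to 201 bp, against 158 to 167 bp). Both sets hold both treatments, and a region whose ranks did not overlap between treatments is therefore separate within each set by construction. A rank difference is given as log2(rank), prednisolone minus control, so that a negative value means a stronger peak after prednisolone.

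The 6 loci held 182 top peaks. Per 100 kb and list, the 6 windows had 3.98 LEF1 top peaks and 4.16 TCF7L2 top peaks. The value was 0.697 for either antibody over 57348 tiles of 50 kb that hold any peak. These tiles were not limited to genes, and windows around other genes were not counted, so enrichment over other genes was not tested. SOCS2 was the densest for both, with 6.35 and 7.14, and BCL6 followed with 5.11 and 6.44. IL7R had 4.79 LEF1 and 3.2 TCF7L2 top peaks per 100 kb. The lowest values were 1.21 for LEF1 at CISH and 0.962 for TCF7L2 at SOCS1. The map of top peaks shows that the peaks were not spread evenly: at BCL6 most lay around the 5′ end, at IL7R and SOCS2 they lay at the 5′ end and downstream of the span, and at SOCS1 no top peak of any list lay on the gene span itself.

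**Figure D1:**
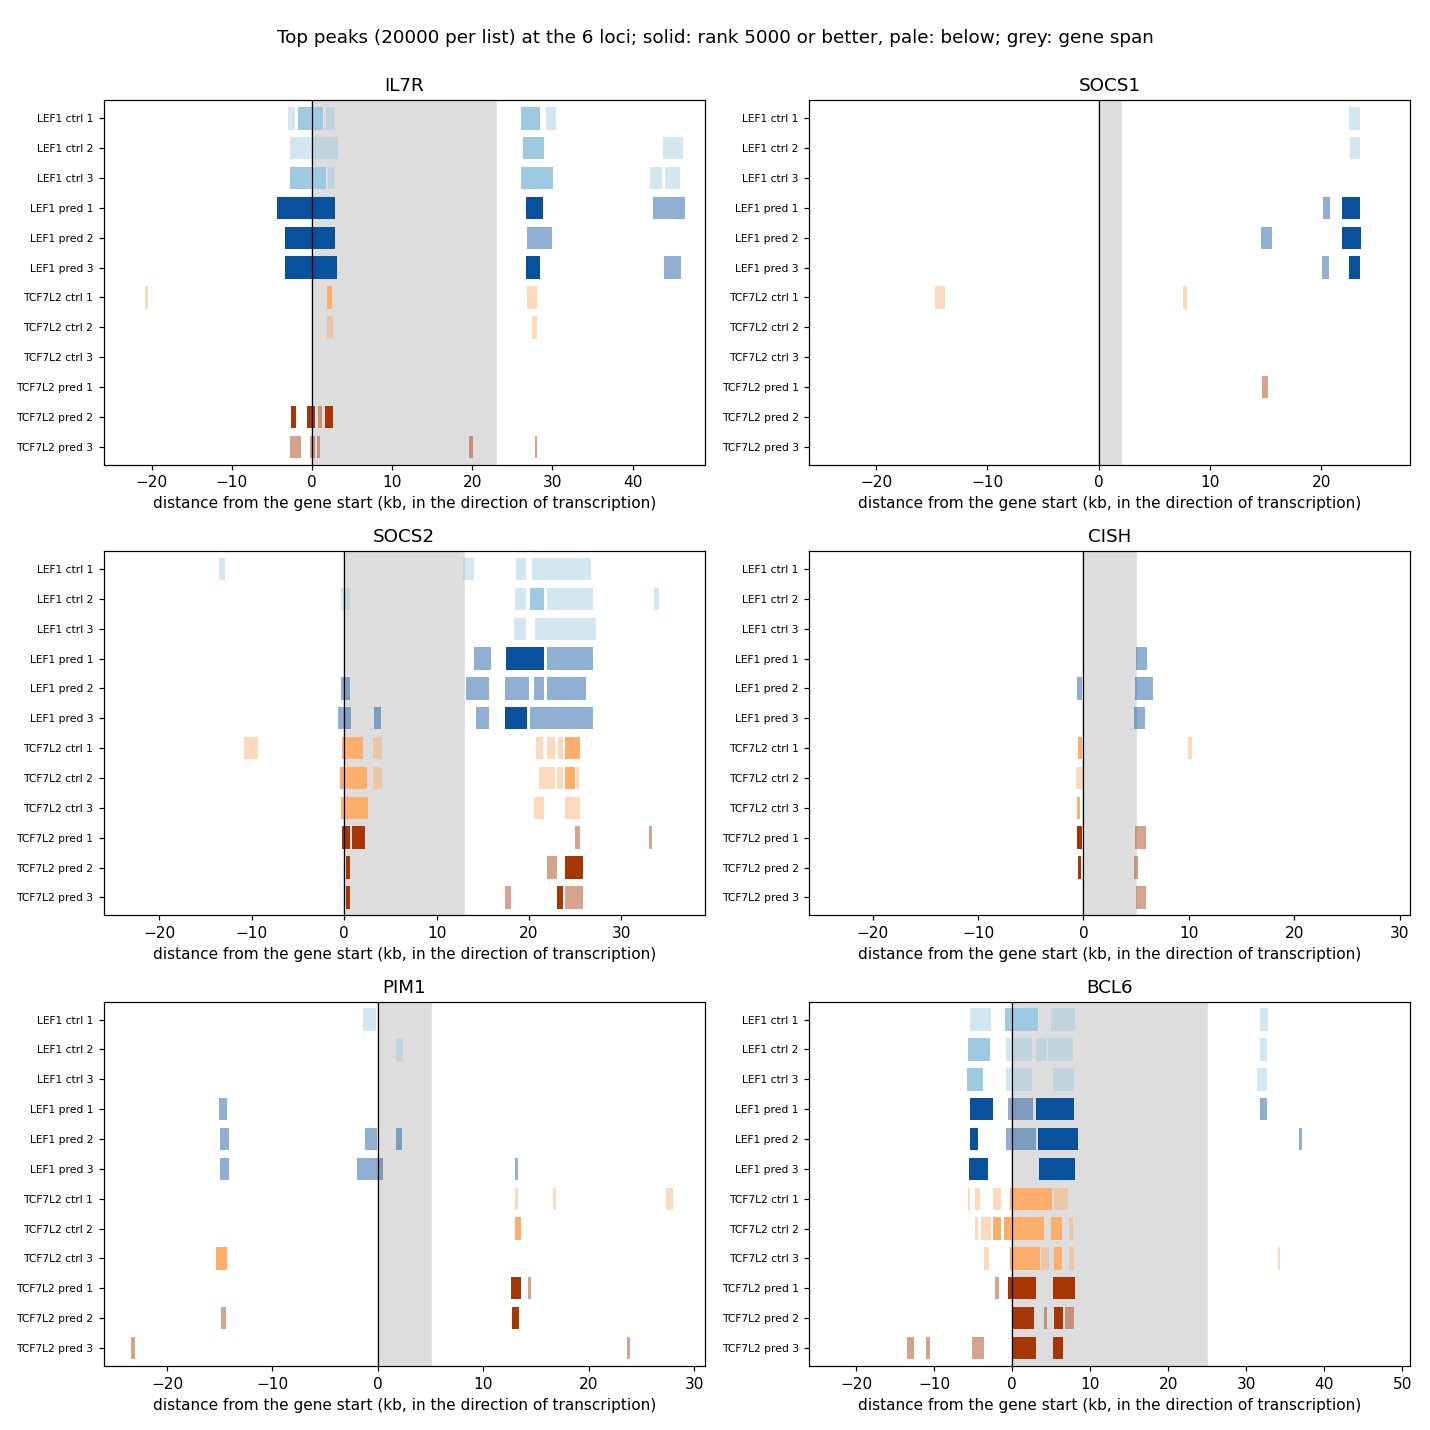
Top peaks of the 12 lists along each locus, with the distance from the gene start in kb on the x axis and 1 row per library. Solid bars rank 5000 or better, pale bars lower, and grey marks the gene span. Solid LEF1 bars cover the IL7R 5′ end in all prednisolone lists and in control replicates 1 and 3. Solid TCF7L2 bars cover the BCL6 start in all 6 lists.

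The top peaks formed 22 LEF1 regions and 35 TCF7L2 regions at the loci. Of the LEF1 regions, 4 (18.2%) had better ranks in all 3 prednisolone lists than in any control list, at IL7R, SOCS1, CISH and PIM1, where 7.77% of all 36912 LEF1 regions did so. None of the 22 had worse ranks, against 7.67% of all, though 1 did without control replicate 1, control replicate 3 or prednisolone replicate 1, with 50000 top peaks or under a limit of 2 on −log10 q, and 2 in a 50 kb window. Of the TCF7L2 regions, 1 of 35 (2.86%) ranked better after prednisolone, at CISH, against 0.998% of all 79360, and 1 of 35 ranked worse, at SOCS2, against 2.24%. A top peak in 3 of 3 prednisolone lists and 0 of 3 control lists was found for 2 LEF1 regions, at CISH and PIM1 (2.82% of all LEF1 regions), and for 1 TCF7L2 region, at CISH (0.36%). No region of the loci went the opposite way (1.92% and 1.24% of all). With 3 lists against 3, the exact two-sided permutation test cannot go below p = 0.1, which is the value for each of these 6 regions. No treatment difference can therefore pass 0.05, and the 6 regions are described as separate between treatments in these lists and no more. With lists of 10000 top peaks the LEF1 count was 2 and the count of TCF7L2 regions ranked better was 0, and the latter was 4 without prednisolone replicate 1, while the count ranked worse was 3 without control replicate 3 or prednisolone replicate 3.

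**Figure D2:**
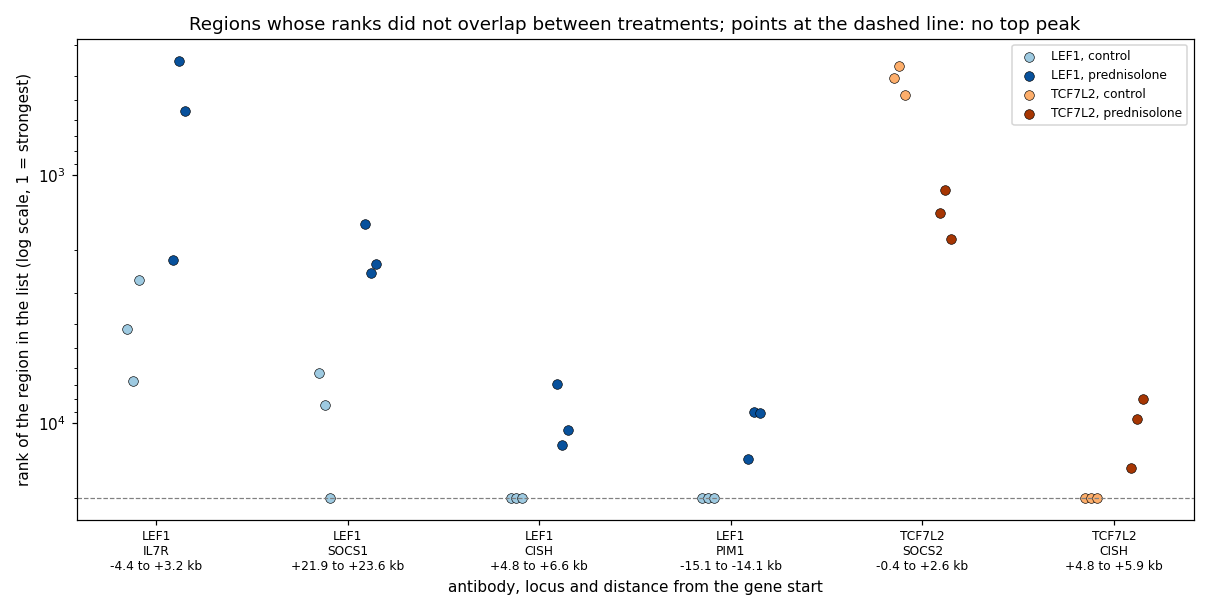
Rank in each list (log scale, 1 is the strongest, drawn at the top) of the 6 regions whose ranks did not overlap between treatments, with 3 control and 3 prednisolone libraries each. Points on the dashed line had no top peak there. The 4 LEF1 regions and the CISH region of TCF7L2 are higher after prednisolone, and the SOCS2 region of TCF7L2 is lower.

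At IL7R, the receptor gene of the set, LEF1 occupied a 7680 bp region over the 5′ end, chr5:35852559-35860238 (hg19), from 4.4 kb before to 3.2 kb after the start of the span. Its ranks were 4194, 6787 and 2657 in control replicates 1 to 3 and 2194, 347 and 553 after prednisolone. The treatments did not overlap, although prednisolone replicate 1 came close to control replicate 3, and the difference was -2.5 (exact permutation p = 0.1). The authors' folds over background were 9.27, 5.24 and 10.6 in the control lists and 11.8, 20.2 and 17.2 in the prednisolone lists. Within this region the summit, the position of the highest signal, also lay elsewhere after prednisolone. It was at -0.2, 0.0 and -0.2 kb from the start in the controls and at -2.4, -2.3 and -2.3 kb after prednisolone, with 2158 bp between the median positions. All 6 LEF1 lists had a peak over both positions. At the upstream one the peak ranked 18011, 6787 and 2657 in the controls against 2194, 347 and 553 after prednisolone. In every list but control replicate 1 the same peak spanned both positions, so these ranks repeat those of the whole region. TCF7L2 had a top peak at that upstream position in prednisolone replicates 2 and 3 (ranks 2227 and 8350), while prednisolone replicate 1 and control replicate 2 had peaks there far below the limit (ranks 169683 and 315936) and the other control lists had none.

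A second LEF1 region lay 26.1 to 30.4 kb from the IL7R start, downstream of the span, at chr5:35883095-35887352. It ranked 1115, 1294 and 2225 in the controls and 1425, 8307 and 1273 after prednisolone, so that the treatments overlapped, and its summit stayed between 27.5 and 27.7 kb in all 6 lists. TCF7L2 top peaks covered it in only 3 of 6 lists. Farther downstream, 42.2 to 46.5 kb from the start, LEF1 had top peaks in 4 of 6 lists, and 1.6 to 2.6 kb into the gene TCF7L2 had them in 3 of 6. CAPSL is the other coding gene of the IL7R window in the RefSeq table, and which gene a region acts on was not tested.

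Among the feedback inhibitors, SOCS1 had its strongest LEF1 region well downstream of the gene, at chr16:11326410-11328113, 21.9 to 23.6 kb from the start. It ranked 6284 and 8431 in control replicates 1 and 2, and in control replicate 3 its peak was outside the top peaks, at rank 22838 of the full list. After prednisolone it ranked 1578, 2492 and 2296. All 3 prednisolone values are better than any control value, with a difference of -2.29 (exact permutation p = 0.1). The summit was at 23 or 23.1 kb in 5 lists and at 22.7 kb in control replicate 3. TNP2, PRM3, PRM2 and PRM1, which encode sperm chromatin proteins, are the other coding genes of this window. TCF7L2 had 3 regions at SOCS1, each in a single list.

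At SOCS2, TCF7L2 ranked worse after prednisolone. The region over its 5′ end, chr12:93963598-93966590, -0.4 to 2.6 kb from the start, ranked 406, 364 and 477 in the controls and 1425, 1149 and 1819 after prednisolone. The control ranks stood close together and all prednisolone ranks were lower in the lists, by 1.8 (exact permutation p = 0.1). The authors' −log10 q-values were 27.0, 33.4 and 28.6 in the controls and 7.45, 5.94 and 3.44 after prednisolone, so the region remained called in all 6 lists. The TCF7L2 lists as a whole were also weaker after prednisolone. They held 6499, 3511 and 3071 peaks at a −log10 q of at least 2, against 7117, 7606 and 9730 in the controls. Whether the fall in q-value at this region goes beyond that of the lists was not tested. The summit of the region lay 0.2 to 0.5 kb from the start throughout. LEF1 ranked low within its lists here: its region over the start was a top peak in 3 of 6 lists, with ranks of 15590 to 18404. The −log10 q-values of these LEF1 peaks were 7.12 in control replicate 2 and 7.86 and 5.98 in prednisolone replicates 2 and 3. They overlapped those of TCF7L2 after prednisolone.

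LEF1 at SOCS2 was strongest downstream of the span used here, in a 9765 bp region at chr12:93981411-93991175. The RefSeq model of SOCS2 on GRCh38 is longer than that span, and whether this region lies within the longer model was not tested. It ranked 9997, 3013 and 7290 in the controls and 2633, 7062 and 3842 after prednisolone, and the treatments overlapped (exact permutation p = 0.4). The summits did not overlap: they lay at 21.2, 21.1 and 21.2 kb in the controls and at 19.2 kb in each prednisolone list, with 1932 bp between the medians. At the prednisolone position, the LEF1 peaks ranked 12714, 8787 and 11655 in the controls and 2633, 7062 and 3842 after prednisolone. At the control position they ranked 9997, 3013 and 7290 against 2633, 16057 and 5754. The treatments were thus separate at the first of these positions and overlapped at the second, where the peak of prednisolone replicate 1 spanned both. A neighbouring LEF1 region, at chr12:93976949-93979946, had summits at 13.7, 13.7 and 13.8 kb in the controls and 15.4, 15.1 and 15.1 kb after prednisolone, but was a top peak in only 4 lists. TCF7L2 had top peaks in all 6 lists at chr12:93987877-93989834, with ranks from 1085 to 15579 that overlapped between the treatments.

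**Figure D3:**
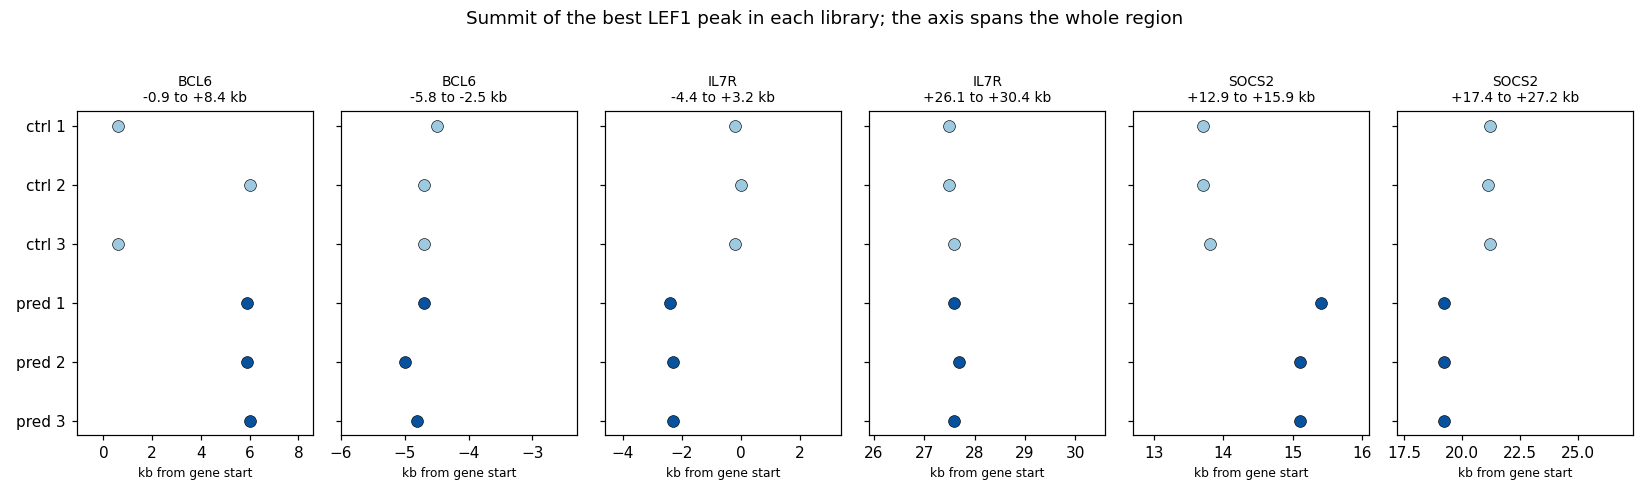
Summit of the best LEF1 peak in each of the 6 LEF1 lists (rows), in kb from the gene start (x axis), for 6 regions. The x axis of each panel spans the region, and at the SOCS2 region from 12.9 kb 2 control summits come from peaks below the top 20000. At IL7R (-4.4 to 3.2 kb) and in both SOCS2 panels the control and prednisolone points stand apart, while in the others they overlap or lie close together.

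The summit positions were looked at after these differences had been seen, and no test is given. Over the genome, 27 of 7560 LEF1 regions with a top peak in all 6 lists (0.357%) had the summits of the treatments at least 1 kb apart with no overlap, and so did 19 of the 1239 such regions of 4 kb or longer (1.53%). At the 6 loci these were 2 of 5 regions, IL7R and SOCS2, and both belong to the 4 of 4 kb or longer. Without prednisolone replicate 1 the count fell to 1, since the downstream SOCS2 region then splits between its 2 summits, and without control replicate 2 it was 3, with the BCL6 start added. For TCF7L2 the count was 0 of 3 at the loci and 0.286% over the genome.

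At CISH the regions of both antibodies that were separate between treatments lay at the same place. LEF1 had no top peak in the window in any control list, and after prednisolone a region over the 3′ end of the span, chr3:50642414-50644196, ranked 6930, 12235 and 10670. Weaker LEF1 peaks were present there in the controls, at ranks 87842, 52999 and 23887 of the full lists, so the region was weak and not absent. TCF7L2 had its region at chr3:50643073-50644183, with ranks 15126, 9620 and 7989 after prednisolone and 215572, 43969 and 115555 in the full control lists. These TCF7L2 peaks were weak calls, with −log10 q-values of 0.906, 0.636 and 1.075 after prednisolone. Those of the LEF1 peaks after prednisolone were 15.35, 9.43 and 9.78. Under a limit of 2 on −log10 q, the count of TCF7L2 regions ranked better was 0. The differences among top peaks were -1.05 for LEF1 and -0.928 for TCF7L2 (exact permutation p = 0.1 for each).

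The CISH start was a TCF7L2 region, chr3:50648993-50649700. It ranked 3114, 6325 and 1742 in the controls and 1005 and 1985 in prednisolone replicates 1 and 2, and prednisolone replicate 3 had no peak there in its full list. The summit was -0.4 kb from the start in the 5 lists with a peak. LEF1 had peaks at the start only in prednisolone replicates 2 and 3, at ranks 18363 and 28341. HEMK1 and MAPKAPK3 are the other coding genes of the window.

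PIM1, the survival kinase, had a LEF1 region 15.1 to 14.1 kb upstream, chr6:37122876-37123913. It ranked 13917, 9036 and 9079 after prednisolone and was no top peak in the controls, where its peaks had ranks 49351, 42573 and 21547 of the full lists. The difference among top peaks was -0.936 (exact permutation p = 0.1). The summit stayed between -14.7 and -14.5 kb in all 6 lists. TCF7L2 had top peaks at the same place only in control replicate 3 (rank 2595) and prednisolone replicate 2 (rank 6604), thus in 1 list of each treatment. On the other side of the gene, 12.6 to 13.6 kb from the start at chr6:37150606-37151581, TCF7L2 ranked 7998 and 3822 in control replicates 1 and 2 and 2421 and 2983 in prednisolone replicates 1 and 2, and replicate 3 of either treatment had no peak. LEF1 peaks near the PIM1 start and 1.7 to 2.4 kb into the gene were top peaks in 3 and 2 of 6 lists.

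BCL6, the repressor, had the best-ranked TCF7L2 peak of the 6 loci in every list. The 9056 bp region chr3:187455984-187465039 over its 5′ end ranked 89, 102 and 79 in the controls and 112, 108 and 65 after prednisolone. The treatments overlapped (exact permutation p = 0.9), and the summit lay 0.6 to 0.7 kb inside the start in all 6 lists. The authors' folds there were 22.7, 21.2 and 34.2 in the controls and 23.3, 17.2 and 21.4 after prednisolone. LEF1 covered the same 5′ end with far worse ranks, 3549, 6073 and 8143 in the controls and 3679, 4715 and 2510 after prednisolone. Its summit was at 0.6 kb in control replicates 1 and 3 and at 5.9 to 6.0 kb in control replicate 2 and all 3 prednisolone lists. The main LEF1 region of the locus lay upstream, chr3:187466533-187469826, 5.8 to 2.5 kb before the start. It ranked 6127, 3043 and 3576 in the controls and 947, 3565 and 2631 after prednisolone, which overlapped. RTP2 is the other coding gene of the BCL6 window.

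The antibodies were then compared over all 12 lists, with the labels exchanged within each treatment. A rank places a peak only within its own list. At a −log10 q of at least 2, the LEF1 lists held 46742 to 79899 peaks and the TCF7L2 lists 3071 to 9730. A better rank for an antibody therefore need not mean a stronger call. A region was called where the antibodies' ranks did not overlap within either treatment. Of 38 regions of the loci, LEF1 ranked better in 2, against 3.88% of all 94421, and TCF7L2 in 2, against 1.18% of all. The LEF1 count was 6 with 50000 top peaks, against 2.96% of all, and 6 under the limit on −log10 q, against 10.6%, and it was 4 in a 50 kb window. Ranked by fold, the TCF7L2 count was 1, against 0.607%. LEF1 ranked better at the region downstream of IL7R, by 2.95 on the log2 scale (TCF7L2 minus LEF1), and at the region upstream of BCL6, by 1.97. TCF7L2 ranked better over the BCL6 5′ end, with a difference of -5.61, and over the SOCS2 5′ end, with -4.58. Each of the 4 had p = 0.005 in the exact two-sided permutation test, the smallest that its 400 relabellings allow, and 0.0989 after Benjamini-Hochberg adjustment over all regions. No region of the genome reached an adjusted 0.05, where 7.45% of all regions were better for LEF1 and 2.06% for TCF7L2 at an unadjusted p under 0.05, among them 4 and 3 at the loci. At BCL6 the regions preferred by the 2 antibodies were next to each other, TCF7L2 over the start and LEF1 just upstream of it.

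By the best peak anywhere in the window, the loci fell in a different order for each antibody. In LEF1 controls the ranks were 1115 to 2225 at IL7R, 3043 to 3576 at BCL6, 3013 to 9997 at SOCS2, 6284 to 22838 at SOCS1, 6789 to 21547 at PIM1 and 23887 to 56072 at CISH, in the full lists. IL7R stood apart at the top and CISH at the bottom, and the other 4 overlapped with a neighbour. After prednisolone LEF1 ranked 347 to 1425 at IL7R, 1578 to 2492 at SOCS1, 947 to 3565 at BCL6, 2633 to 7062 at SOCS2, 6930 to 12235 at CISH and 9036 to 13917 at PIM1. IL7R and SOCS1 each overlapped BCL6 here, and CISH overlapped SOCS2 and PIM1. TCF7L2 in controls ranked 79 to 102 at BCL6 and 364 to 477 at SOCS2, both apart from the rest, then 1742 to 6325 at CISH, 2595 to 7998 at PIM1, 3719 to 34280 at IL7R and 10753 to 48344 at SOCS1, each overlapping the next. After prednisolone BCL6, at 65 to 112, stood apart, and SOCS2, at 1085 to 1819, overlapped CISH, at 1005 to 7989.

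**Figure D4:**
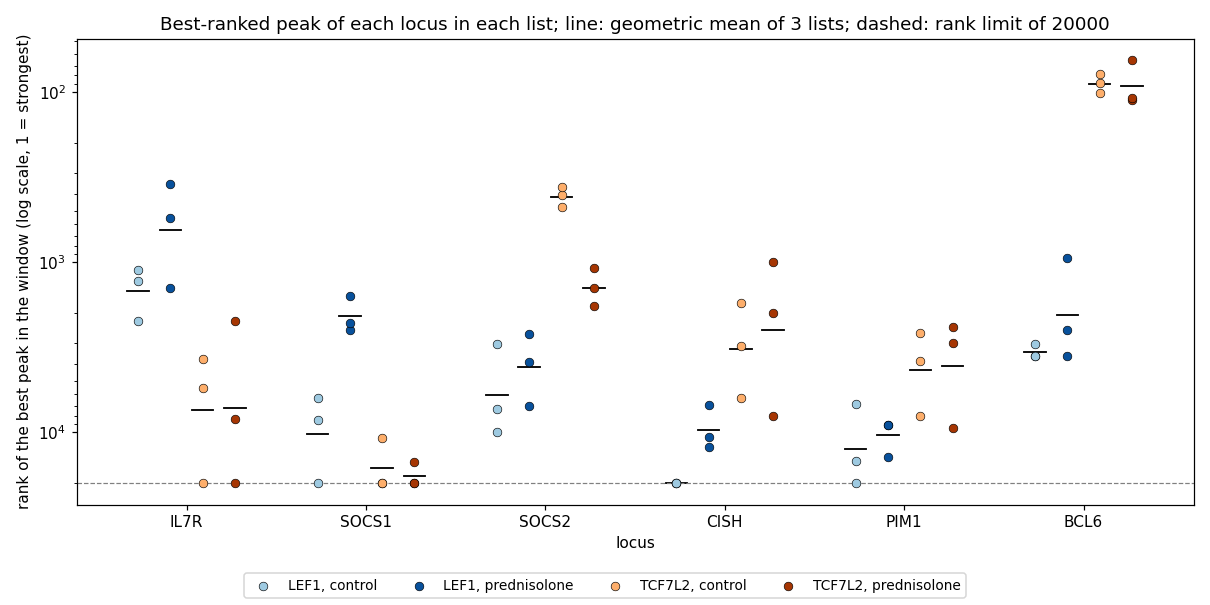
Rank of the best peak of each locus in each list (log scale, the strongest at the top), with 3 libraries per group and the geometric mean as a line. Points on the dashed line had no top peak. TCF7L2 is ahead of LEF1 at BCL6 and SOCS2 with no overlap, and LEF1 is ahead at IL7R.

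Over the 6 LEF1 and 6 TCF7L2 lists, the log2 of the best rank at IL7R was 9.93 ± 0.981 for LEF1 and 12.83 ± 1.29 for TCF7L2 (SD, n = 6 each), a difference of 2.9 (exact permutation p = 0.005). At BCL6 it was 11.36 ± 0.748 for LEF1 and 6.51 ± 0.302 for TCF7L2, a difference of -4.85 in favour of TCF7L2 (exact permutation p = 0.005). At SOCS2 it was 12.29 ± 0.785 and 9.58 ± 1.01, a difference of -2.71 (exact permutation p = 0.005). These 3 loci had no overlap between the antibodies within either treatment, where 5.73% of 37513 tiles had that in favour of LEF1 and 2.7% in favour of TCF7L2. The remaining differences were 1.9 at SOCS1 (exact permutation p = 0.02), -2.28 at CISH (0.01) and -1.46 at PIM1 (0.03, and 0.05 without LEF1 prednisolone replicate 1). An unadjusted p under 0.05 in favour of LEF1 was thus found at 2 of 6 loci, against 11.4% of tiles, and in favour of TCF7L2 at 4 of 6, against 5% of tiles. The windows are 52 to 75 kb long against 50 kb for a tile, and as a set they hold more top peaks per 100 kb. The shares are therefore not like for like, and an excess at these genes was not tested. Adjusted over all tiles and the 6 windows, the values were 0.0593 for IL7R, SOCS2 and BCL6, 0.143 for SOCS1, 0.0994 for CISH and 0.2 for PIM1, so none passed 0.05. At PIM1 the −log10 q-values of the best peaks were 6.14 to 14.58 for LEF1 and 0.884 to 6.42 for TCF7L2. At CISH they were 9.43 to 15.35 and 1.075 to 9.99 after prednisolone, and 2.06 to 5.42 and 2.26 to 8.67 in the controls. The better TCF7L2 ranks at these 2 loci were thus not stronger calls throughout. Ranked by fold, the differences at SOCS1 and CISH were 0.446 (exact permutation p = 0.27) and -0.0967 (p = 0.77), and within 10 kb of the genes that at SOCS1 was -0.149 and that at PIM1 -1.18 (p = 0.14). Within each of the sets of libraries, the differences kept their sign. They were 2.78 and 3.02 at IL7R, -2.8 and -2.62 at SOCS2, and -5.21 and -4.49 at BCL6. At the other loci they were 2.3 and 1.5 at SOCS1, -1.91 and -2.66 at CISH, and -0.813 and -2.1 at PIM1. Each set joins LEF1 and TCF7L2 libraries of unlike shortest peak, so peak length was not held equal between the antibodies.

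The same measure was compared between treatments, in 12 tests. LEF1's best rank was separate between treatments at SOCS1 (-2.29, and -1.39 and -3.04 within the sets) and at CISH (-1.05, and -0.808 and -1.53 within the sets), where 8.99% of 19726 tiles ranked better and 9.96% worse. In a 10 kb window, which leaves out its downstream region, SOCS1 had no LEF1 top peak in any list and the difference was 0.0. TCF7L2's was separate at SOCS2 only, with 1.77, and 1.79 and 1.77 within the sets, where 4.29% of 35070 tiles ranked worse and 2.58% better. Here too the tiles are shorter than the windows and poorer in top peaks than the windows as a set. The 3 separate differences had p = 0.1, the smallest possible in the exact permutation test. The other 9 had exact permutation p from 0.3 to 1.0, with LEF1 differences of -1.18 at IL7R, -0.729 at BCL6, -0.54 at SOCS2 and -0.273 at PIM1, and TCF7L2 differences between -0.369 at CISH and 0.161 at SOCS1. Leaving out 1 library moved the LEF1 differences that were not separate. The range was -1.75 to -0.733 at IL7R (without prednisolone replicates 1 and 2) and -1.13 to -0.176 at BCL6 (without prednisolone replicates 2 and 1). It was -1.04 to -0.176 at SOCS2 (without control replicates 2 and 1) and -0.721 to 0.0585 at PIM1 (without control replicates 2 and 3). At SOCS2 the difference was also -0.212 without prednisolone replicate 1 and -0.924 without prednisolone replicate 2, and at PIM1 each of the other 4 LEF1 libraries left out gave a value between -0.48 and -0.157. All 6 LEF1 differences over all lists were negative, though in a 10 kb window that at PIM1 was 0.524. In 4 of the 12 tests the 2 sets of libraries gave opposite signs: TCF7L2 at SOCS1, CISH and BCL6, and LEF1 at PIM1. For TCF7L2 at IL7R both sets gave a positive value, 0.214 and 0.932, against -0.0454 over all lists. The treatment difference itself differed between the antibodies at an unadjusted p under 0.05 at SOCS2 alone of the 6 loci. It did so by 2.31 (exact permutation p = 0.025, 1.0 after adjustment over all tiles), where 2.08% of tiles had an unadjusted p under 0.05. At SOCS1 the difference of 2.45 had an exact permutation p = 0.05.

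Positions shared by LEF1 and TCF7L2 were counted from either side. Of the 22 LEF1 regions, 12 (54.5%) overlapped a TCF7L2 region, against 50.8% of all LEF1 regions, and of the 35 TCF7L2 regions 19 (54.3%) overlapped a LEF1 region, against 27.4% of all TCF7L2 regions. LEF1 regions with a top peak in all 6 lists numbered 5 (22.7%, against 20.5%), and 7 regions (31.8%, against 30.3%) came from a single list. Of the TCF7L2 regions, 3 (8.57%, against 2.2%) were in all 6 lists and 18 (51.4%, against 78.1%) in a single one. The 3 were those over the 5′ ends of BCL6 and SOCS2 and downstream of SOCS2.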

How the data were processed

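CUT&RUN peak lists of 12 libraries were used: LEF1 and TCF7L2, control and prednisolone, 3 replicates each. Peaks were called with MACS2 on hg19, per the submitters' processing notes; its version, the aligner and the control library are not given in the sources used here. Each deposited list holds one library, with no pooling. For each peak the authors deposited a fold ratio over the background, a −log10 p-value, a −log10 q-value, a summit and a score; the deposited score was not used. The lists reach down to a p-value of 0.05, and 244 of the 966 peaks at the loci had a q-value of 1.

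The members and lists were chosen with earlier results of these data known. Gene spans were used to the kb, so distances carry that rounding. Each list was limited to its 20000 best peaks by −log10 p-value, merged at 1 bp or more with Python 3.11.15, numpy 2.4.6 and pandas 2.3.3. A list without a top peak took the rank just past the limit. Ranks were compared on the log2 scale with exact two-sided permutation tests, and for the antibodies with labels exchanged within each treatment, adjusted by Benjamini-Hochberg. Named regions were the 4 with the best median rank per locus and antibody and every region separate between treatments. Summit positions and the difference in treatment response between antibodies were added after seeing the data. Scripts were tested on simulated data. Sequences are from RefSeq; no hg19 genome or annotation was used, and the other pathway genes and the sequences under the peaks were not analysed here. Alternatives changed the length of the lists, the ranking, the window, a q-value limit, the replicate block and each replicate. The number of replicates sets the precision and the smallest possible p-value. A permutation p-value is the share of relabellings of these libraries with a difference at least as large.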

Additional observations from a re-analysis of the deposited data

Results flagged for a closer look

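Before adjustment, the treatment difference at SOCS2 differed between the antibodies, in a measure added after seeing the data. The best LEF1 rank changed by -0.54 on the log2 scale and the best TCF7L2 rank by 1.77, a difference of 2.31 (exact two-sided permutation p = 0.025 over 6 loci compared). After Benjamini-Hochberg adjustment over 37519 tiles and windows the permutation p was 1.0, and 2.08% of 37513 tiles had an unadjusted p under 0.05. The best LEF1 peak lay downstream in every list. The best TCF7L2 peak lay at the 5′ end except in prednisolone replicate 2, where it lay downstream, 24.6 kb from the start (rank 1085). The values thus mix different places of this locus, and the cause was not tested.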

How the results depend on the processing

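Of 367 recomputed values that answer a comparison, 319 kept their direction and side of the threshold or stayed within 1.5 times of a count. Of 96 recomputed numbers of top peaks at single loci, 61 moved by 1 SD between replicates or more. LEF1 regions ranked better after prednisolone fell from 4 to 2 with 10000 top peaks or a 10 kb window, and those ranked worse numbered 1 with 50000 top peaks, under a limit of 2 on −log10 q or with the replicate block, and 2 with a 50 kb window. TCF7L2 regions ranked better numbered 0 with 10000 top peaks or the q-value limit, and those ranked worse 2 with 50000 top peaks, a 50 kb window or ranking by fold. LEF1 was ahead of TCF7L2 in 6 regions with 50000 top peaks or the q-value limit and in 4 with a 50 kb window, and TCF7L2 ahead in 1 when ranked by fold. Lists limited by q-value have unequal lengths.

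For the best rank, a 50 kb window gave 0.529 for the TCF7L2 treatment difference at IL7R and -0.242 at SOCS1. A 10 kb window gave -0.149 for the antibody difference at SOCS1, and 0.0 (p = 1.0) for its LEF1 treatment difference, since this window leaves out the downstream region, 0.524 for the LEF1 treatment difference at PIM1 and -1.18 (exact permutation p = 0.14) for the antibodies at PIM1. Ranking by fold gave 0.446 (p = 0.27) at SOCS1 and -0.0967 (p = 0.77) at CISH for the antibodies, by exact permutation, and 0.161 for TCF7L2 treatment at PIM1. For the other values above the cause was not tested. The ranks showed no pairing by replicate number, as deviations of same-numbered libraries correlated at -0.149 to -0.00863. Whether these libraries were paired by experiment cannot be told from such correlations. With the replicate block the antibody differences were 1.9 at SOCS1 and -1.46 at PIM1, both with exact permutation p = 0.0625, and no other value lost its side of the threshold.

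Leaving out each replicate in turn gave 4 to 6 LEF1 regions ranked better and 0 to 1 worse (1 without control replicate 1, control replicate 3 or prednisolone replicate 1). TCF7L2 regions ranked better numbered 1 to 4, with 4 without prednisolone replicate 1 and 2 without prednisolone replicate 3. Those ranked worse numbered 1 to 3, with 3 without control replicate 3 or prednisolone replicate 3 and 2 without prednisolone replicate 2. Regions called between the antibodies numbered 2 to 3 in either direction, and LEF1 regions with summits apart, a measure and alternatives chosen after seeing the data, 1 to 3. TCF7L2 treatment differences ranged from -0.783 to 0.8 at IL7R, -0.138 to 0.31 at SOCS1, -1.2 to 0.293 at CISH, -0.677 to 0.373 at PIM1 and -0.0954 to 0.297 at BCL6, and the LEF1 difference from -0.721 to 0.0585 at PIM1. The antibody difference at PIM1 ranged from -1.76 to -1.27, with exact permutation p = 0.05 without LEF1 prednisolone replicate 1. Treatment differences have a smallest p of 0.1, so their p-values say nothing of stability. The weak calls at the end of the TCF7L2 lists limit what absence from them shows.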
